A study of Mus musculus with 6 samples.

Results

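RNA sequencing of untreated GFP+ cells was set against that of untreated RFP+ cells, both sorted from cultures of the Tri-PyMT line. Tri-PyMT is a mouse line from a mammary tumour driven by the polyoma middle T oncogene, and it carries a fluorescent tracer of epithelial-mesenchymal transition (EMT). The labels give GFP+ cells as EMT and RFP+ cells as non-EMT. Each population had 2 samples, so 4 of the 6 samples of the study enter the comparison. GFP+ cells from cultures given 4-hydroperoxy-cyclophosphamide form the other group of the study, and they were used only in an alternative fit. The genes compared were the named protein-coding genes with an FPKM (fragments scaled by transcript length and by the mapped total of the sample) of at least 1 in at least 2 of these 4 samples. That left 10995 genes of the 30743 features of the deposited table, while 9126 of its 20121 named protein-coding genes were too low to be tested.

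Both populations were grown in DMEM with 10% FBS without drug, carried the same oncogene and tracer, and differed in colour alone as far as the labels say. As the Tri-PyMT model is generally described, Cre recombinase under the promoter of S100a4 (also called Fsp1) switches a cell permanently from red to green, and the colour thus records past activity of that promoter, not the present state of a cell. The labels do not name the promoter, and they do not state the number of cultures or sorts behind the samples. The p-values therefore measure the spread between 2 samples of a colour, which can be technical. In RNA from sorted pools, fewer cells of a kind and less RNA per cell cannot be told apart.

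Epithelial cells are held together by adherens junctions built on E-cadherin, by tight junctions that seal the gaps between cells, and by desmosomes anchored to keratins. In EMT, transcription factors of the Zeb, Snail and Twist families repress these genes, in part by binding E-boxes in their promoters, and cells gain vimentin, N-cadherin and a matrix-producing programme. The grainyhead-like and Ovol transcription factors and the Esrp splicing regulators maintain the epithelial state. In mammary tumours, cells can hold both kinds of gene expression at once.

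Values are FPKM divided by a median-ratio size factor per sample (scaled FPKM), given for replicate 1 and then replicate 2 of a colour, and differences are GFP+ minus RFP+ on the scale log2(scaled FPKM + 1), which understates the difference of genes with low values. The size factors were 0.783 and 1.037 in GFP+ samples, against 1.137 and 1.083 in RFP+ samples. No read totals were at hand. From the step between the lowest FPKM values, the relative fragment totals were 0.794 and 1.034 in GFP+ samples, against 1.004 in RFP+ replicate 2 with RFP+ replicate 1 taken as the unit. GFP+ replicate 1 was thus the shallowest of the 4. Between 10474 and 10983 protein-coding genes reached an FPKM of 1 in a sample. Between 44.0% and 46.2% of a sample's FPKM sum lay in features that carry an accession and no gene name.

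Epithelial marker genes were expressed in both colours, at lower levels in GFP+ cells. All 12 epithelial marker genes checked were lower in GFP+ cells by at least 1 log2 unit, with no overlap between colours, and their summed level was 252 and 374 in GFP+ cells, against 868 and 1237 in RFP+ cells. None of them was at 0 in GFP+ cells.

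No protein-coding gene passed the test on scaled values. Limma with Benjamini-Hochberg adjustment over all 12313 features called 0 of 10995 genes higher and 0 lower at an adjusted p under 0.05, and the smallest adjusted p was 0.0724. At an unadjusted p under 0.05, 531 genes were higher and 588 were lower, 10.2% of those tested. Without GFP+ replicate 2 the fit called 37 genes higher and 21 lower, and without GFP+ replicate 1 it called 0 and 1. The FPKM as deposited leave a median difference of -0.26 over all genes, against 0.01 after scaling. With them, 26 genes were called higher (0.236%) and 266 lower (2.42%). In that fit the spread of a gene was drawn far more strongly towards that of all genes (prior degrees of freedom 27.3, against 2.39 scaled). The smaller p-values given as deposited carry both this and the shift, and are not separate evidence for a gene. When the drug-treated GFP+ samples lent their spread to the fit, 125 genes were called higher (1.14%) and 207 lower (1.88%). The drug-treated pair lay far closer together than the pairs of either untreated colour. Calls with all 6 samples therefore rest in part on the spread of a group that is not compared here.

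Genes are therefore described here by size and by overlap, a rule chosen after the test had called none. A gene is named set apart when both GFP+ samples lay on the same side of both RFP+ samples and the difference was at least 1 log2 unit. By this rule 101 genes were higher in GFP+ cells (0.919%) and 214 were lower (1.95%). Absence of overlap alone was common, with 2077 genes higher (18.9%) and 2115 lower (19.2%). In a stricter reading, where each of the 4 pairings of a GFP+ with an RFP+ sample differed by at least 1 log2 unit, 25 genes were higher and 104 were lower. Of the genes set apart lower, 212 were also called with the FPKM as deposited, against 26 of those set apart higher. The deposited values lean to lower genes from the outset, with 4954 lower and 459 higher without overlap. The contrast of 212 and 26 therefore lends the lower genes no further weight. Without GFP+ replicate 1 the count of genes set apart higher was 174, and without RFP+ replicate 2 it was 197. With the FPKM as deposited 55 genes were set apart higher and 321 lower. Pseudocounts of 0.1 and 5 in place of 1 gave 187 and 36 higher, and 335 and 62 lower. The filter on low values was passed through a single colour by 6 of the genes set apart higher and 29 of those set apart lower. Most genes differed little, and 89.5% of them had a difference of under 0.5 log2 units in size.

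**Figure D1:**
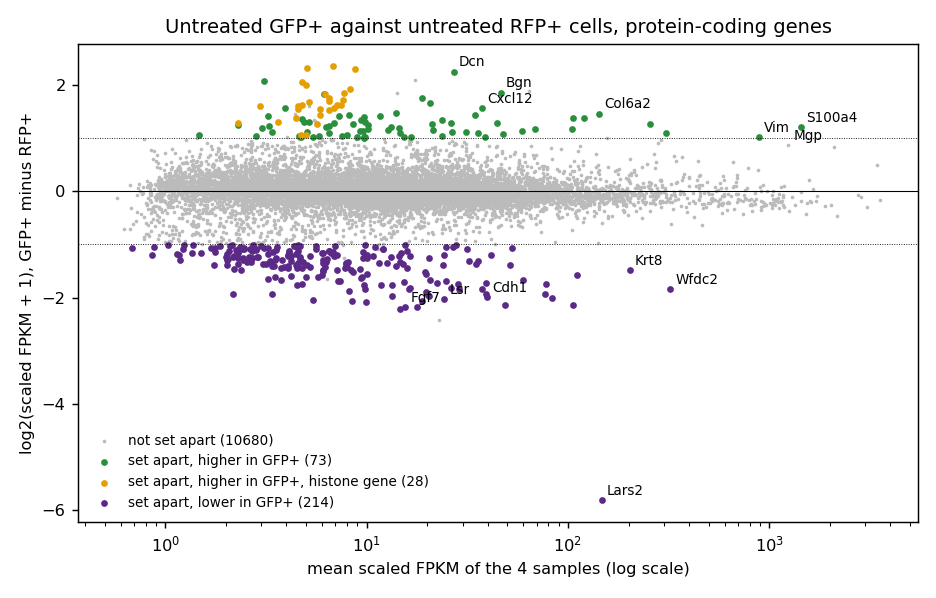
Each point is a protein-coding gene, with its mean scaled FPKM over the 4 samples on a log axis and its log2 difference, GFP+ minus RFP+, on the other. Coloured points are the 101 genes set apart higher, 28 of them histone genes, and the 214 set apart lower; dotted lines mark 1 log2 unit either way.

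Tight junction genes were lower in GFP+ cells as a group. Of 26 measured members of the tight junction and polarity list, 12 were set apart lower and none higher, the list median was -0.98 against 0.01 over all genes, and 16 were called lower as deposited. Over all genes, 1.95% were set apart lower and 0.919% higher, and 2.42% and 0.236% were called lower and higher as deposited. Those shares stand beside the count of every list below, and no count was tested against them. Every one of the 26 differences was below 0. Lsr, which gathers proteins at the corners where cells meet, stood at 8.8 and 9.02 in GFP+ cells, against 39.5 and 39.6 in RFP+ cells, and had the smallest adjusted p of all protein-coding genes (log2 difference -2.03, SE 0.12, adjusted p = 0.0724 scaled and 1.60e-05 as deposited). The GFP+ mean was 0.225 times the RFP+ mean, and the samples of a colour were nearly equal. Claudin 3 (Cldn3), a strand-forming protein of the seal, stood at 17.1 and 14.5 in GFP+ cells, against 58.7 and 66.8 in RFP+ cells (log2 difference -1.93, SE 0.16, adjusted p = 0.090 scaled and 2.22e-05 as deposited). The scaffold protein Tjp3, which links claudins to the actin skeleton, stood at 3.4 and 4.33 in GFP+ cells, against 14.2 and 17 in RFP+ cells (log2 difference -1.77, SE 0.17, adjusted p = 0.106 scaled and 1.49e-04 as deposited). All 3 genes were set apart, and absence of overlap is part of that rule. Claudin 7 (Cldn7) was at 4.06 and 5.62 in GFP+ cells, against 19.2 and 24.7 in RFP+ cells, and occludin (Ocln), a further membrane protein of the seal, at 0.637 and 1.19 in GFP+ cells, against 2.42 and 4.02 in RFP+ cells. Claudin 4 (Cldn4) was set apart less cleanly, at 1.75 and 3.2 in GFP+ cells, against 3.8 and 12.1 in RFP+ cells, since the lower RFP+ sample came close to the higher GFP+ sample. The polarity gene Pard6b was at 1.05 and 1.01 in GFP+ cells, against 3.26 and 3.83 in RFP+ cells.

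The promoters of these 3 junction genes are shown with those of the 2 genes with the smallest adjusted p among the largest increases that had a promoter in the reference table, Cxcl12 and Srpx2. Each run covers 250 bases before to 50 after the start site in RefSeq, build GRCm38.p6, 5′ to 3′ on the strand of the gene. Capitals mark the E-box CAGGTG or its reverse complement CACCTG, the kind bound by Zeb and Snail proteins.
Lsr, chr7:30973420-30973719, minus strand: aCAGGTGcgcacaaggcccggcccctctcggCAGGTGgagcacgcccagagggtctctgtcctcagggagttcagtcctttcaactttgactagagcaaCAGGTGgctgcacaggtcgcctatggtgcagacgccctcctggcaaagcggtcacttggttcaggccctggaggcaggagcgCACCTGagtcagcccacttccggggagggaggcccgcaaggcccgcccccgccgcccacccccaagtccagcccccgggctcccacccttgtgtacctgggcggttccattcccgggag
Cldn3, chr5:134985964-134986263, plus strand: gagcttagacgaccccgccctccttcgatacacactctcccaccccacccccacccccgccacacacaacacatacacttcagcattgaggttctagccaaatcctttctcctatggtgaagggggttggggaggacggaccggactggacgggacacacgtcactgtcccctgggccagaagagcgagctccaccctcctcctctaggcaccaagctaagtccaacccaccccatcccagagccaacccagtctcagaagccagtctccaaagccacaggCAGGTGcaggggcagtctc
Tjp3, chr10:81291532-81291831, minus strand: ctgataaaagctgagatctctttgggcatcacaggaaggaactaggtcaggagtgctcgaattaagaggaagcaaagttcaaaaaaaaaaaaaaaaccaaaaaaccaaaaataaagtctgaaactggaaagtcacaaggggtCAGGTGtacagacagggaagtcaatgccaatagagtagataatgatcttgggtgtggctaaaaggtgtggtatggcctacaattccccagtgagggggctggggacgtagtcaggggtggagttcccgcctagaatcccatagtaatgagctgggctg
Cxcl12, chr6:117168285-117168584, plus strand: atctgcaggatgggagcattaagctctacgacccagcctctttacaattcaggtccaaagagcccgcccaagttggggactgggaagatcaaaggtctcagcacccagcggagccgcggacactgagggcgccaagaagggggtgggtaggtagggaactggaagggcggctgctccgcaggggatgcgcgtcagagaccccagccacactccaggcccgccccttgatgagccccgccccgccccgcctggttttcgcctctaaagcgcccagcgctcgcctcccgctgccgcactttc
Srpx2, chrX:133908175-133908474, plus strand: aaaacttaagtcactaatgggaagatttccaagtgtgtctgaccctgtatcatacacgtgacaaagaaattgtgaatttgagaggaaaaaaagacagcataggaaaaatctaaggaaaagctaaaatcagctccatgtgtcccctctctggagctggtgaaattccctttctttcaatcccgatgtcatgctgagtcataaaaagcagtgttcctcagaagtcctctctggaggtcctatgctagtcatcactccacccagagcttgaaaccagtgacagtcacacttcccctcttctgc
The Lsr promoter held 4 such E-boxes, those of Cldn3 and Tjp3 held 1 each, and those of Cxcl12 and Srpx2 held 0.

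Across all genes, the same E-box was found more often in promoters of genes lower in GFP+ cells. Of the 10995 genes, 8893 had a promoter in the reference table. The letters CAGGTG, read on both strands, stood in 13 of 81 promoters of genes set apart higher (16.0%), in 68 of 137 of genes set apart lower (49.6%), and in 16.8% of all 8893. Over all 27025 promoters of the table the share was 20.03%. At least 2 such E-boxes were found in 0 of the 81 promoters of genes set apart higher, in 25 of the 137 of genes set apart lower (18.2%) and in 2.22% of all 8893. Graded by difference, the share was 48.6% of 146 promoters below -1 log2 unit and 38.2% of 283 between -1 and -0.5, then 17.1%, 14.2%, 13% and 14.3% in the bins above.

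The 9 other kinds of E-box (CANNTG read on both strands) did not show this to the same degree. Their share in promoters of genes set apart lower was between 0.50 and 1.51 times that over all 8893, against 2.96 times for CAGGTG, and CAGCTG had the highest of the 9 at 21.2% against 13.98%. The grainyhead-type motif AACCNGTT stood in 0% of promoters of genes set apart higher, 2.19% of those set apart lower and 1.89% of all. Median GC content was 54.7% for genes set apart higher, 60.7% for those set apart lower and 61.3% overall. Without histone genes, CAGGTG stood in 11 of 53 promoters of genes set apart higher (20.8%). The 214 genes set apart lower include 29 that passed the filter on low values through a single colour. Those with a promoter were kept in these shares. The shares describe letters in a window and were not tested.

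**Figure D2:**
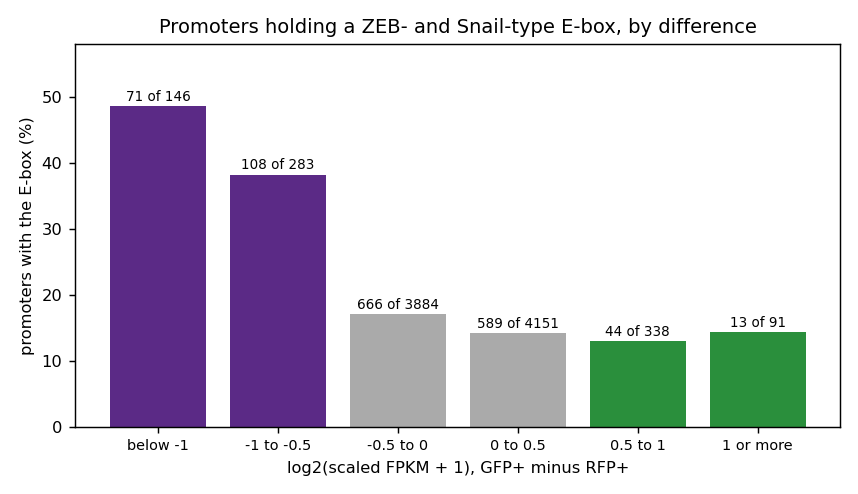
Bars give the percentage of promoters that hold the E-box CAGGTG on either strand, in 6 bins of the log2 difference, GFP+ minus RFP+, with the number of promoters above each bar. The share was 48.6% and 38.2% in the bins below -0.5 and 13% to 17.1% in the others.

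Some adherens junction and desmosome genes, E-cadherin among them, were also lower in GFP+ cells, while others differed little. Over all genes 1.95% were set apart lower. Of 19 adherens junction and adhesion genes 5 were set apart lower, 1 of which passed the filter on low values through RFP+ cells alone, and none higher (median -0.43, 5 called lower as deposited), and of 11 desmosome and plakin genes 4 were lower and none higher (median -0.61, 4 called lower as deposited). E-cadherin (Cdh1), the adhesion protein of adherens junctions, stood at 13.4 and 17 in GFP+ cells, against 54.5 and 73.4 in RFP+ cells (log2 difference -1.99, SE 0.22, adjusted p = 0.106 scaled and 2.70e-05 as deposited). The adhesion molecule Epcam stood at 29 and 41.7 in GFP+ cells, against 105 and 134 in RFP+ cells (log2 difference -1.74, SE 0.25, adjusted p = 0.121 scaled and 1.79e-04 as deposited). The GFP+ means of Cdh1 and Epcam were 0.238 and 0.296 times the RFP+ means. Plakoglobin (Jup), which serves both kinds of junction, was at 20.1 and 16.3 in GFP+ cells, against 44.4 and 48.5 in RFP+ cells. In desmosomes, the plaque protein Pkp3 was at 3.9 and 5.41 in GFP+ cells, against 14.1 and 16.9 in RFP+ cells, desmoplakin (Dsp) at 4.29 and 6.23 in GFP+ cells, against 12.4 and 15.5 in RFP+ cells and the desmosomal cadherin Dsg2 at 2.27 and 2.5 in GFP+ cells, against 6.61 and 7.29 in RFP+ cells. The most abundant members did not follow. The surface glycoprotein Cd24a was at 351 and 235 in GFP+ cells, against 357 and 299.6 in RFP+ cells and the tetraspanin Cd9 at 473 and 366 in GFP+ cells, against 407 and 270.2 in RFP+ cells, with overlapping colours. The plakins Plec, at 28.1 and 52.4 in GFP+ cells, against 25.3 and 38.9 in RFP+ cells, and Dst, at 21 and 31.1 in GFP+ cells, against 17.4 and 21.8 in RFP+ cells, overlapped too.

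Most of the measured keratins, the intermediate filaments of epithelia, had lower values in GFP+ cells, while the basal pair Krt14 and Krt5 was split. Of 11 measured, 5 were set apart lower and 1 higher, beside 1.95% and 0.919% of all genes (median -0.98, 6 called lower and 1 higher as deposited). The keratins of simple epithelium were lower, with Krt8 at 82.9 and 130.1 in GFP+ cells, against 243 and 354 in RFP+ cells and Krt18 at 41.5 and 69.4 in GFP+ cells, against 124 and 211 in RFP+ cells (log2 differences -1.49 and -1.58, adjusted p = 0.229 and 0.278 scaled, 0.00185 and 0.00122 as deposited). Krt7 was at 22 and 43.1 in GFP+ cells, against 93.5 and 173 in RFP+ cells and Krt19 at 6.81 and 6.45 in GFP+ cells, against 16.4 and 21 in RFP+ cells. Replicate 2 was above replicate 1 for Krt7, Krt8 and Krt18 in both colours, and the colours did not overlap. The basal keratin Krt14 was lower, at 88 and 101 in GFP+ cells, against 177 and 197 in RFP+ cells (log2 difference -0.98, SE 0.17, adjusted p = 0.165 scaled and 0.0172 as deposited), just short of 1 log2 unit. Its usual partner Krt5 lay the other way, at 13.2 and 15.8 in GFP+ cells, against 4.06 and 5.69 in RFP+ cells (log2 difference 1.41, SE 0.20, adjusted p = 0.121 scaled and 0.0426 as deposited).

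Several transcription and splicing factors of the epithelial state were lower in GFP+ cells. Of 19 measured, 9 were set apart lower and none higher, beside 1.95% and 0.919% of all genes (median -0.92, 10 called lower as deposited). The splicing regulator Esrp1 stood at 7.48 and 8.01 in GFP+ cells, against 34.2 and 32.2 in RFP+ cells (log2 difference -1.97, SE 0.12, adjusted p = 0.0746 scaled and 2.43e-05 as deposited), and its relative Esrp2 at 3.04 and 2.92 in GFP+ cells, against 9.1 and 9.23 in RFP+ cells. The grainyhead-like factor Grhl2, which activates junction genes, stood at 2.3 and 3.64 in GFP+ cells, against 12.2 and 14.5 in RFP+ cells (log2 difference -1.87, SE 0.22, adjusted p = 0.107 scaled and 1.23e-04 as deposited). All 3 genes had GFP+ values under their RFP+ values, as the rule for genes set apart requires. Ovol2, a repressor of EMT factors, was near the detection limit in GFP+ cells, at 0.0527 and 0.488 in GFP+ cells, against 2.31 and 1.87 in RFP+ cells. It is 1 of the 9, and it passed the filter on low values through RFP+ cells alone. The ETS factor Elf3 was at 2.72 and 2.08 in GFP+ cells, against 8.42 and 7.68 in RFP+ cells. The ETS factor Ehf, the most abundant member, was lower by less, at 55.8 and 52.6 in GFP+ cells, against 77.1 and 73.3 in RFP+ cells (log2 difference -0.47, adjusted p = 0.365), and Cebpb, a factor of mammary development, was at 57.5 and 55.1 in GFP+ cells, against 52.8 and 52 in RFP+ cells.

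Most surface proteases and inhibitors of epithelia were lower in GFP+ cells, and a minority of trafficking genes and transporters were. The share set apart lower over all genes was 1.95%. Of 6 membrane proteases and inhibitors 5 were set apart lower (median -1.54, 5 called lower as deposited). The protease St14 (matriptase) was at 13.1 and 18.5 in GFP+ cells, against 49.8 and 68.5 in RFP+ cells and its inhibitor Spint2 at 27.4 and 35.7 in GFP+ cells, against 112 and 134 in RFP+ cells, with GFP+ means of 0.266 and 0.257 times the RFP+ means. Of 11 trafficking and secretion genes 3 were set apart lower, 1 of them past the filter through RFP+ cells alone (median -0.49, 3 called lower as deposited), among them Rab25, a GTPase of recycling endosomes, at 7.14 and 8.42 in GFP+ cells, against 28.8 and 34.4 in RFP+ cells (log2 difference -1.89, SE 0.16, adjusted p = 0.0946 scaled and 4.45e-05 as deposited). The SNARE protein Vamp8, the most abundant of these, was at 87.4 and 68.1 in GFP+ cells, against 119 and 99.6 in RFP+ cells. Of 11 channels and transporters 4 were set apart lower, 2 of them past the filter through RFP+ cells alone (median -0.32, 5 called lower as deposited), led by the potassium channel Kcnk1 at 6.32 and 7.08 in GFP+ cells, against 29.6 and 32.6 in RFP+ cells (log2 difference -2.06, SE 0.13, adjusted p = 0.0746 scaled and 1.72e-05 as deposited). The sodium pump subunit Atp1b1 was at 8.36 and 7.02 in GFP+ cells, against 30.5 and 34.4 in RFP+ cells. The water channel Aqp5 did not overlap but differed little, at 253 and 229.9 in GFP+ cells, against 191 and 182 in RFP+ cells.

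Of 25 luminal mammary and milk genes 12 were measured, and the milk genes Csn1s2a, Csn2, Wap and Lalba were at 0 in all 4 samples. Of the 12, 6 were set apart lower and none higher, beside 1.95% and 0.919% of all genes (median -0.91, 6 called lower as deposited). Of these 6, 1 passed the filter through RFP+ cells alone. Wfdc18 and Wfdc2, secreted proteins of the whey acidic protein family, were at 40.8 and 35.5 in GFP+ cells, against 143 and 203 in RFP+ cells, and at 146 and 132 in GFP+ cells, against 567 and 445 in RFP+ cells. The prolactin receptor Prlr was at 3.34 and 5.09 in GFP+ cells, against 7.49 and 11.9 in RFP+ cells and the stem cell factor receptor Kit at 1.97 and 1.56 in GFP+ cells, against 5.28 and 4.87 in RFP+ cells. The secreted iron-trapping protein Lcn2, by far the most abundant member, overlapped at 3595 and 2035 in GFP+ cells, against 3336 and 3286 in RFP+ cells. Myoepithelial and contractile genes had a median difference near that of all genes. Of 11 such genes 1 was set apart, the tropomyosin Tpm2, lower at 0.646 and 1.6 in GFP+ cells, against 2.52 and 5.67 in RFP+ cells (median 0.02, 1 called lower as deposited). Smooth muscle actin (Acta2) was at 18.4 and 12.3 in GFP+ cells, against 15.9 and 18.6 in RFP+ cells, and the abundant tropomyosins Tpm1 and Tpm4 at 508 and 619 in GFP+ cells, against 528 and 676 in RFP+ cells, and at 303 and 319.7 in GFP+ cells, against 267 and 272 in RFP+ cells.

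**Figure D3:**
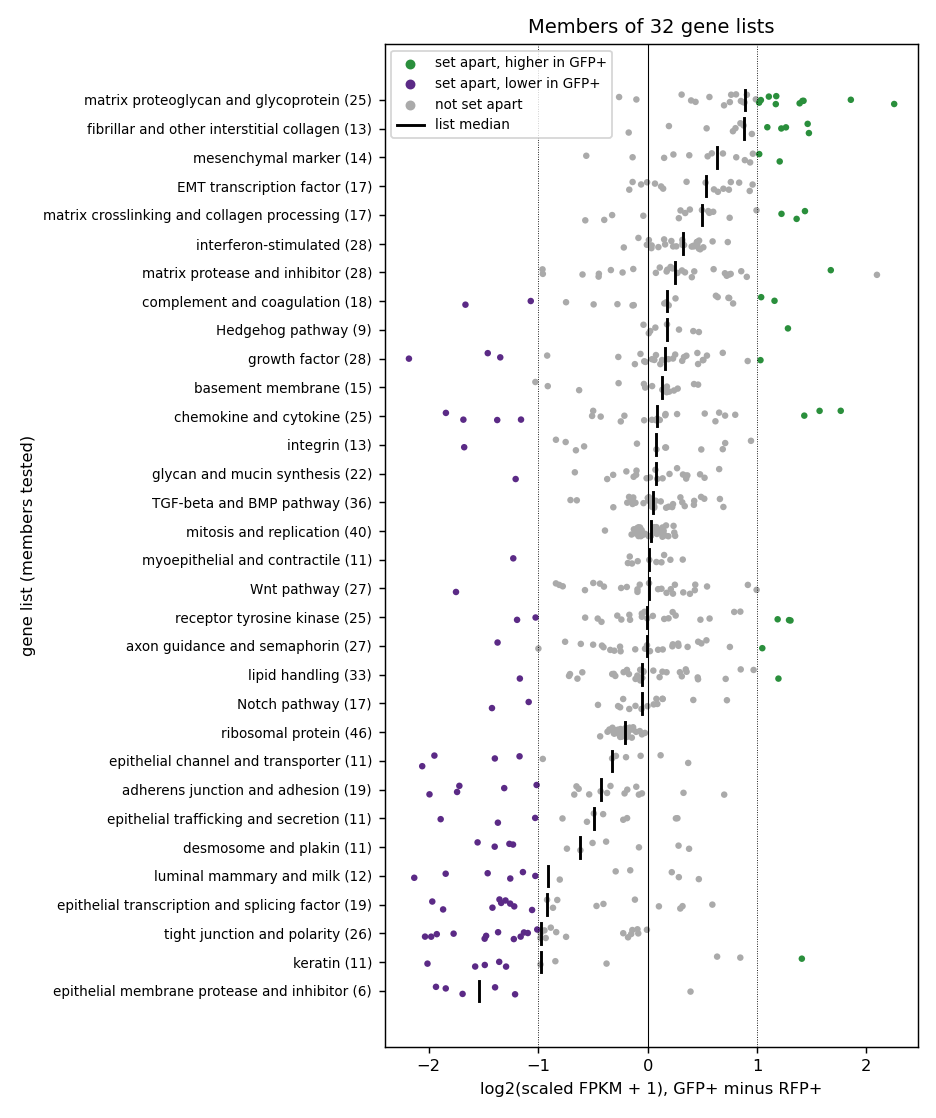
Points are the measured members of 32 gene lists on the axis of the log2 difference, GFP+ minus RFP+, in order of the list median (black bar), with the number of members in brackets. Medians ran from 0.89 for matrix proteoglycans and glycoproteins to -1.54 for epithelial membrane proteases and inhibitors.

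Most EMT transcription factors had higher GFP+ values, by less than 1 log2 unit each. Of 17 measured, 13 differences were above 0 and 4 below, and none was set apart. The median was 0.53. Relative to all genes it was 0.52, and 0.068 without a filter on low values. Without overlap, 10 factors had higher GFP+ values and 1 had lower ones, beside 18.9% and 19.2% of all genes. None was called as deposited. When all 6 samples were fitted, and the drug-treated pair lent its spread, 2 were called higher, Zeb1 and Prrx2 (adjusted p = 0.0207 and 0.0309). In that fit 1.14% of all genes were called higher. Other lists had calls there too, with 12 tight junction genes and 10 epithelial factors lower. Among matrix genes, 6 collagens and 7 proteoglycans and glycoproteins were called higher there. Zeb1 stood at 8.47 and 9.71 in GFP+ cells, against 4.01 and 4.36 in RFP+ cells (log2 difference 0.96, SE 0.14, adjusted p = 0.123 scaled and 0.413 as deposited), just short of 1 log2 unit. Zeb2 was at 8.21 and 10.8 in GFP+ cells, against 4.35 and 5.37 in RFP+ cells, Snai1 at 37.2 and 28.2 in GFP+ cells, against 22.8 and 16.9 in RFP+ cells, and Snai2 at 6.53 and 5.32 in GFP+ cells, against 4.15 and 2.79 in RFP+ cells. Twist1 was at 30.6 and 42.5 in GFP+ cells, against 19.3 and 28.1 in RFP+ cells, and Twist2, under the filter in all 4 samples, was not tested. The paired-related homeobox factor Prrx2 was at 55.8 and 62.6 in GFP+ cells, against 34.5 and 34.5 in RFP+ cells, and Prrx1 at 7.05 and 4.63 in GFP+ cells, against 3.48 and 1.78 in RFP+ cells. Each of the 7 factors given here that were tested had its lower GFP+ sample above its higher RFP+ sample. The most abundant factor of the list, Sox9, overlapped at 87.8 and 109.7 in GFP+ cells, against 84.6 and 104 in RFP+ cells, and the E-proteins Tcf3 and Tcf4 also overlapped.

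Of 14 mesenchymal markers 2 were set apart higher and none lower, beside 0.919% and 1.95% of all genes (median 0.64, 0 called as deposited). With the spread of the drug-treated pair, 3 were called higher in the fit of all 6 samples. Of the 14, 12 differences were above 0 and 2 below, and 1 marker was lower without overlap. S100a4 is 1 of the 2 set apart, and by the description above it is not independent of the colour. S100a4, the gene whose promoter is described above as driving the colour switch, stood at 2279 and 1691 in GFP+ cells, against 1109 and 651 in RFP+ cells (log2 difference 1.21, SE 0.38, adjusted p = 0.397 scaled and 0.38 as deposited). It was thus abundant in RFP+ cells also, and its GFP+ mean was 2.26 times the RFP+ mean. Vimentin (Vim), the intermediate filament of mesenchymal cells, stood at 1216 and 1155 in GFP+ cells, against 591 and 577 in RFP+ cells (log2 difference 1.02, SE 0.21, adjusted p = 0.209 scaled and 0.533 as deposited). Samples of a colour were close. N-cadherin (Cdh2) was at 26.2 and 21.2 in GFP+ cells, against 13.8 and 10.2 in RFP+ cells, the matrix glycoprotein Sparc at 444 and 322 in GFP+ cells, against 223 and 168 in RFP+ cells and fibronectin (Fn1) at 645 and 926 in GFP+ cells, against 479 and 583 in RFP+ cells. These 3 did not overlap between colours and stayed under 1 log2 unit (0.94, 0.96 and 0.55). The hyaluronan receptor Cd44 overlapped, at 68.8 and 79.1 in GFP+ cells, against 54.6 and 80.5 in RFP+ cells.

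**Figure D4:**
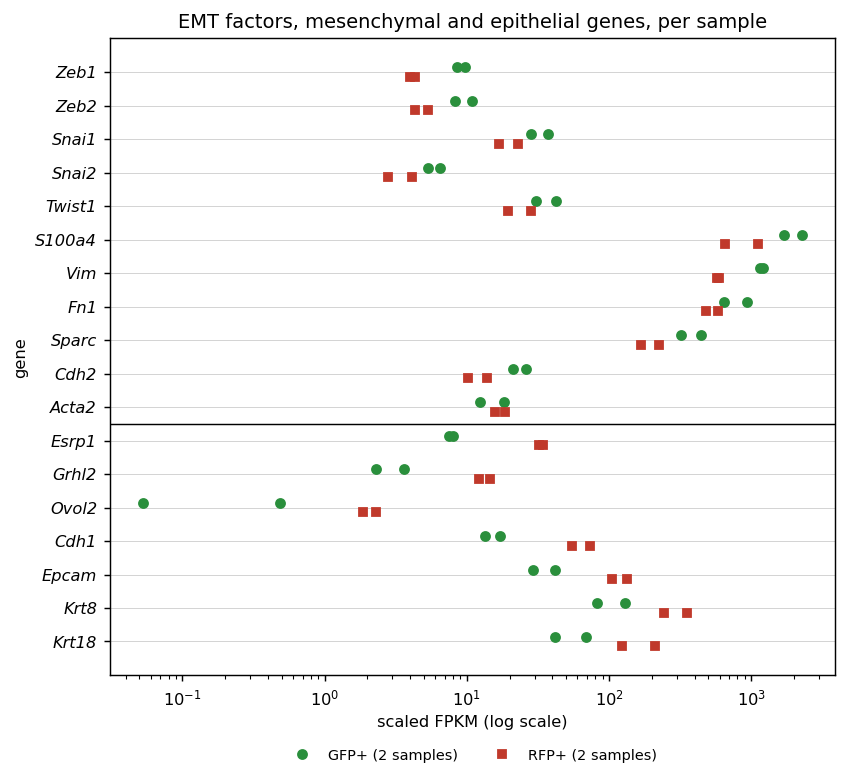
Scaled FPKM on a log axis in each GFP+ sample (circles, upper of each row) and each RFP+ sample (squares), for EMT factors and mesenchymal genes above the line and epithelial genes under it. Of the genes drawn, the colours overlap for Acta2 alone (Twist2, which was not tested, is not drawn), and the distance is larger for the epithelial genes, as for Esrp1 at 7.48 and 8.01 in GFP+ cells, against 34.2 and 32.2 in RFP+ cells.

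Several interstitial matrix genes were set apart higher in GFP+ cells, beside 0.919% of all genes. Of 13 collagens 5 were set apart higher and none lower (median 0.88, 1 called higher as deposited), and of 25 matrix proteoglycans and glycoproteins 10 were higher and none lower (median 0.89, 3 called higher as deposited). The collagen VI chains Col6a1 and Col6a2 were the most abundant collagens, at 312 and 413 in GFP+ cells, against 135 and 165 in RFP+ cells, and at 180.02 and 238 in GFP+ cells, against 64.2 and 86.3 in RFP+ cells (log2 differences 1.26 and 1.46, adjusted p = 0.177 and 0.16 scaled, 0.153 and 0.0435 as deposited). Both chains gave nearly the same ratio, 2.42 and 2.78. The fibril-forming chains Col3a1 and Col5a1 were at 14.7 and 27.2 in GFP+ cells, against 4.33 and 9.71 in RFP+ cells, and at 49.4 and 48.4 in GFP+ cells, against 23.1 and 21.7 in RFP+ cells. Col1a1, the main chain of connective tissue, was low in both, at 2.68 and 2.23 in GFP+ cells, against 1.0 and 0.832 in RFP+ cells.

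Decorin (Dcn), a small proteoglycan that binds collagen, stood at 38.9 and 51.5 in GFP+ cells, against 6.43 and 11.4 in RFP+ cells (log2 difference 2.25, SE 0.31, adjusted p = 0.119 scaled and 3.25e-04 as deposited). Its GFP+ mean was 5.07 times the RFP+ mean. Biglycan (Bgn), its close relative, stood at 93.8 and 53.5 in GFP+ cells, against 21.8 and 16.3 in RFP+ cells (log2 difference 1.86, SE 0.33, adjusted p = 0.173 scaled and 0.00206 as deposited). Periostin (Postn), a protein of injured and tumour stroma, was at 204 and 106 in GFP+ cells, against 70.7 and 43.7 in RFP+ cells, with a smaller gap between its lower GFP+ and higher RFP+ sample. The elastic fibre proteins Fbln2 and Emilin1 were at 87.4 and 103 in GFP+ cells, against 40.1 and 42.9 in RFP+ cells, and at 6.32 and 4.05 in GFP+ cells, against 1.42 and 1.12 in RFP+ cells. Mgp, a calcification inhibitor and the most abundant member, was at 1846 and 1369 in GFP+ cells, against 952 and 789 in RFP+ cells, under 1 log2 unit. The carrier protein Igfbp4 was at 579.9 and 475 in GFP+ cells, against 339 and 370.2 in RFP+ cells.

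Of 17 genes of collagen processing and crosslinking 3 were set apart higher (median 0.50, 1 called higher as deposited), among them the collagen chaperone Fkbp10 at 7.86 and 6.78 in GFP+ cells, against 2.52 and 1.97 in RFP+ cells and the lysyl oxidase family member Loxl3 at 3.97 and 5.98 in GFP+ cells, against 1.13 and 1.98 in RFP+ cells. The abundant chaperones P4hb and Serpinh1 were at 882 and 649 in GFP+ cells, against 721 and 522 in RFP+ cells, and at 364 and 289 in GFP+ cells, against 241 and 202 in RFP+ cells. Of 28 matrix proteases and inhibitors 1 was set apart higher (median 0.25, 1 called higher and 1 lower as deposited), the secreted serpin Serpinf1 at 34.9 and 28.9 in GFP+ cells, against 9.65 and 8.91 in RFP+ cells (log2 difference 1.67, SE 0.15, adjusted p = 0.103 scaled and 0.00555 as deposited). Timp2 and Serpine2, the most abundant of these inhibitors, were at 1000.2 and 1002 in GFP+ cells, against 672 and 851 in RFP+ cells, and at 187 and 424 in GFP+ cells, against 175 and 388 in RFP+ cells. The stromelysin Mmp3 had a larger difference (2.10) with overlap, at 5.83 and 54.3 in GFP+ cells, against 1.18 and 8.46 in RFP+ cells. Basement membrane genes were close between the colours, with none of 15 set apart (median 0.13, 0 called as deposited). Agrin (Agrn) was at 60.3 and 110.1 in GFP+ cells, against 61.2 and 112 in RFP+ cells and perlecan (Hspg2) at 38.5 and 79.8 in GFP+ cells, against 39.5 and 73.3 in RFP+ cells, where replicate 2 was above replicate 1 in both colours.

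Of 13 integrins, the cell's receptors for matrix, 1 was set apart lower and none higher, beside 1.95% and 0.919% of all genes (median 0.08, 1 called lower as deposited). That was the hemidesmosome integrin Itgb4, at 18.9 and 37.9 in GFP+ cells, against 66.8 and 116 in RFP+ cells. The abundant Itgb1 and Itgb5 overlapped, at 203 and 226 in GFP+ cells, against 172 and 213 in RFP+ cells, and at 62.3 and 69.1 in GFP+ cells, against 57.1 and 67.2 in RFP+ cells. The collagen-binding integrin Itga1 lay the other way, at 3.73 and 3.94 in GFP+ cells, against 1.41 and 1.62 in RFP+ cells (log2 difference 0.94, adjusted p = 0.13).

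Receptor tyrosine kinases differed in both directions. Of 25 measured, 3 were set apart higher and 2 lower, beside 0.919% and 1.95% of all genes (median -0.00, 2 called lower as deposited). The PDGF receptors of mesenchymal cells, Pdgfra and Pdgfrb, stood at 13.6 and 15.2 in GFP+ cells, against 5.65 and 4.83 in RFP+ cells, and at 22.7 and 18.6 in GFP+ cells, against 8.85 and 8.08 in RFP+ cells (log2 differences 1.31 and 1.19, adjusted p = 0.106 and 0.119 scaled). The collagen receptor Ddr2 stood at 9.99 and 10.5 in GFP+ cells, against 3.56 and 3.63 in RFP+ cells (log2 difference 1.29, adjusted p = 0.106). That the colours of these 3 do not overlap follows from the rule for genes set apart. The neuregulin receptor Erbb3 and the ephrin receptor Epha1 were lower, at 2.1 and 2.09 in GFP+ cells, against 6.18 and 5.98 in RFP+ cells, and at 2.27 and 2.81 in GFP+ cells, against 5.48 and 6.96 in RFP+ cells. The most abundant receptors, Axl and Fgfr1, were at 125 and 129.9 in GFP+ cells, against 71.6 and 102 in RFP+ cells, and at 88.4 and 90.2 in GFP+ cells, against 61.1 and 66.3 in RFP+ cells.

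Among 28 growth factors 1 was set apart higher and 3 lower, beside 0.919% and 1.95% of all genes (median 0.16, 4 called lower as deposited). Fgf7, a growth factor that mesenchyme usually makes for epithelium, was lower in GFP+ cells, at 5.0 and 4.9 in GFP+ cells, against 27.9 and 24.2 in RFP+ cells (log2 difference -2.18, SE 0.14, adjusted p = 0.0746 scaled and 9.12e-06 as deposited). Its GFP+ mean was 0.19 times the RFP+ mean, and it led the genes lower in GFP+ cells under the naming rule. Fgfbp1, a carrier that releases such factors from matrix, was at 4.4 and 4.52 in GFP+ cells, against 14.5 and 13.5 in RFP+ cells. The PDGF ligand Pdgfb was lower with wide replicates, at 2.28 and 5.41 in GFP+ cells, against 6.39 and 17.4 in RFP+ cells, and pleiotrophin (Ptn) higher, at 8.38 and 19.1 in GFP+ cells, against 4.98 and 6.53 in RFP+ cells. Csf1 and Angptl2, the most abundant, were at 107 and 155 in GFP+ cells, against 79.4 and 151 in RFP+ cells, and at 83.3 and 83.9 in GFP+ cells, against 53 and 61.5 in RFP+ cells.

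Secreted signals of inflammation were split as well. Of 25 chemokines and cytokines 3 were set apart higher and 4 lower, beside 0.919% and 1.95% of all genes (median 0.09, 3 called higher and 4 lower as deposited). The chemokine Cxcl12, a stromal signal, stood at 57.4 and 55.4 in GFP+ cells, against 18.3 and 18.3 in RFP+ cells (log2 difference 1.57, SE 0.12, adjusted p = 0.090 scaled and 0.0106 as deposited). Il6 stood at 19.9 and 40.2 in GFP+ cells, against 7.37 and 7.93 in RFP+ cells (log2 difference 1.77, SE 0.35, adjusted p = 0.203 scaled and 0.011 as deposited). The alarmin Il33 was at 47 and 55.2 in GFP+ cells, against 18.2 and 18.3 in RFP+ cells (log2 difference 1.43, SE 0.14, adjusted p = 0.106 scaled and 0.0323 as deposited). The lower genes were the chemokines Ccl20, at 3.41 and 9.88 in GFP+ cells, against 15.9 and 35.6 in RFP+ cells, and Cxcl16, at 16 and 22.1 in GFP+ cells, against 43.9 and 57.9 in RFP+ cells, with the cytokines Csf3 and Il23a. Csf3 had wide replicates, at 5.23 and 16.8 in GFP+ cells, against 18.2 and 58.5 in RFP+ cells, and a small gap between colours. The abundant neutrophil chemokines Cxcl5 and Cxcl1 overlapped, at 860.2 and 989.8 in GFP+ cells, against 810.2 and 946 in RFP+ cells, and at 363 and 876 in GFP+ cells, against 401 and 634 in RFP+ cells. Of 18 complement and coagulation genes 2 were set apart higher, C1s and Pros1, and 2 lower, F2rl1 and C1qtnf1 (median 0.18, 2 called lower as deposited). The protease-activated receptor F2rl1 stood at 1.31 and 1.23 in GFP+ cells, against 6.49 and 5.92 in RFP+ cells (log2 difference -1.66, SE 0.14, adjusted p = 0.090 scaled and 2.62e-04 as deposited). The complement protease C1s was at 14.3 and 21.9 in GFP+ cells, against 5.83 and 9.27 in RFP+ cells.

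Few genes of developmental signalling pathways were set apart. Over all genes the shares were 0.919% higher and 1.95% lower, and the counts of each list were not tested against these shares. Of 36 TGF-beta and BMP pathway genes none was set apart (median 0.05, 0 called as deposited), and the BMP target Id3 and the latency protein Ltbp2 were at 269 and 311 in GFP+ cells, against 227 and 180.1 in RFP+ cells, and at 178 and 288 in GFP+ cells, against 171 and 277 in RFP+ cells. The ligands Tgfb1, at 28.4 and 19.2 in GFP+ cells, against 22.5 and 23 in RFP+ cells, and Tgfb2, at 8.98 and 8.0 in GFP+ cells, against 7.8 and 8.64 in RFP+ cells, overlapped. Of 27 Wnt pathway genes 1 was set apart lower, the ligand Wnt7b at 8.95 and 14.7 in GFP+ cells, against 26.8 and 62.7 in RFP+ cells (median 0.01, 1 called lower as deposited). Notum, an enzyme that inactivates Wnt ligands, was at 161 and 259 in GFP+ cells, against 85.1 and 122 in RFP+ cells, just under 1 log2 unit. Of 17 Notch pathway genes 2 were set apart lower (median -0.06, 2 called lower as deposited), including the ligand Jag2 at 2.9 and 4.87 in GFP+ cells, against 9.67 and 14.4 in RFP+ cells. The Notch target Hes1 differed more between replicates than between colours, at 12.1 and 94 in GFP+ cells, against 9.7 and 64.4 in RFP+ cells. Of 9 Hedgehog pathway genes 1 was set apart higher, the co-receptor Gas1 at 64.5 and 62.4 in GFP+ cells, against 23.7 and 27.4 in RFP+ cells (median 0.18, 0 called as deposited). The signal transducer Smo overlapped, at 38.2 and 27.1 in GFP+ cells, against 36.1 and 30.2 in RFP+ cells.

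The next 3 groups had few genes set apart, beside shares of 0.919% higher and 1.95% lower over all genes. Of 27 axon guidance genes 1 was higher, the receptor Robo2, and 1 lower, the semaphorin Sema4d at 1.31 and 1.31 in GFP+ cells, against 4.5 and 5.49 in RFP+ cells (median -0.01, 2 called lower as deposited). Of 22 glycan and mucin genes 1 was lower, the heparan sulphate sulfotransferase Hs6st2 at 0.0752 and 0.174 in GFP+ cells, against 1.47 and 1.72 in RFP+ cells, which passed the filter on low values through RFP+ cells alone (median 0.08, 1 called lower as deposited). The hyaluronan synthase Has2 was at 46.1 and 50.9 in GFP+ cells, against 31.3 and 29.6 in RFP+ cells. Of 33 lipid handling genes 1 was higher, the prostaglandin dehydrogenase Hpgd, and 1 lower, the elongase Elovl7 (median -0.05, 1 called lower as deposited). The abundant fatty acid binding protein Fabp5 was at 500.00 and 225 in GFP+ cells, against 765 and 359 in RFP+ cells, with replicate 2 under replicate 1 in both colours.

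Of the genes with the largest differences by the naming rule, the higher ones included, besides those described, neurotensin (Nts), a gut and brain peptide, at 6.59 and 4.67 in GFP+ cells, against 0.894 and 0.28 in RFP+ cells (log2 difference 2.08, SE 0.27, adjusted p = 0.119 scaled and 3.20e-04 as deposited). Stc1, a secreted hormone-like glycoprotein, was at 11.1 and 9.22 in GFP+ cells, against 2.22 and 1.99 in RFP+ cells (log2 difference 1.84, SE 0.15, adjusted p = 0.090 scaled and 0.00174 as deposited). The secreted sushi-repeat protein Srpx2 was at 5.97 and 6.78 in GFP+ cells, against 1.42 and 1.55 in RFP+ cells (log2 difference 1.57, SE 0.14, adjusted p = 0.101 scaled and 0.00946 as deposited). Nts was nearly absent from RFP+ cells. The lower ones included Tmem54, a membrane protein, at 6.01 and 5.67 in GFP+ cells, against 32.5 and 27.4 in RFP+ cells, the secreted antibacterial protein Pglyrp1 at 17.2 and 17 in GFP+ cells, against 62.4 and 99.2 in RFP+ cells, the proton pump subunit Atp6v1c2 at 2.61 and 3.63 in GFP+ cells, against 12.5 and 21.2 in RFP+ cells and Fgf13, an FGF relative that stays in the cell, at 1.44 and 1.47 in GFP+ cells, against 7.44 and 11.3 in RFP+ cells. Their GFP+ means were 0.155 (Fgf13) to 0.211 (Pglyrp1) times the RFP+ means.

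**Figure D5:**
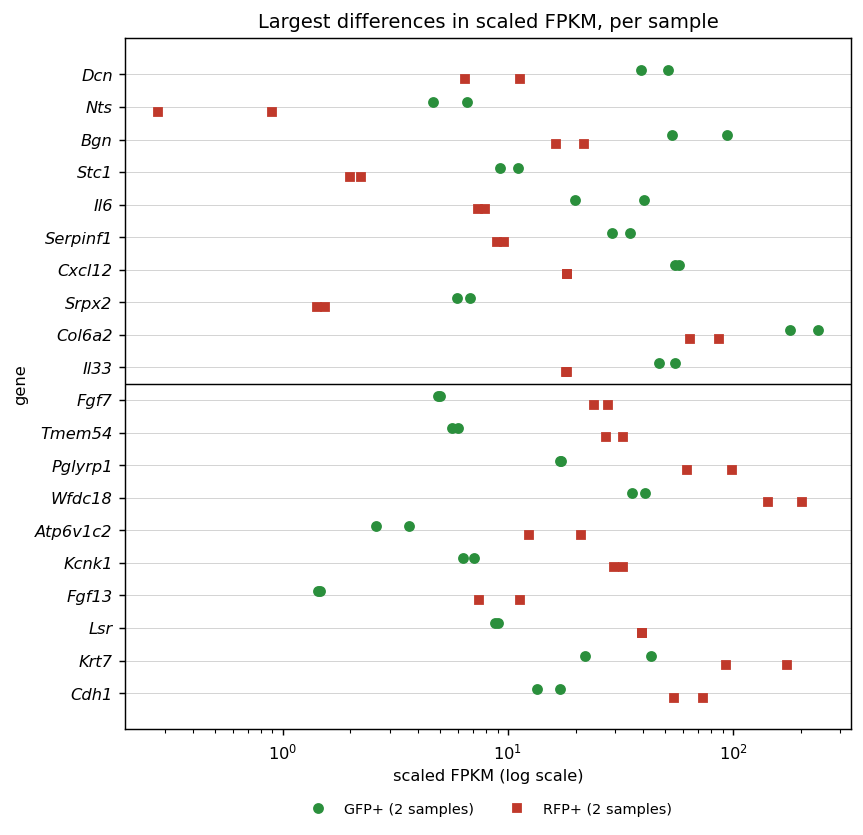
Scaled FPKM on a log axis in each GFP+ sample (circles, upper of each row) and each RFP+ sample (squares), for the 10 largest differences each way under the naming rule. Absence of overlap was a condition of that rule. Cxcl12 lies at 57.4 and 55.4 in GFP+ cells, against 18.3 and 18.3 in RFP+ cells, and Fgf7 at 5.0 and 4.9 in GFP+ cells, against 27.9 and 24.2 in RFP+ cells.

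Histone genes made up a large part of the genes set apart higher, and their high values lay in GFP+ replicate 1. Of 47 histone genes of the replication-dependent clusters, a group chosen after their values were seen, 28 were set apart higher and 46 were highest in GFP+ replicate 1. Their summed level was 782.3 and 167.2 in GFP+ cells, against 102.3 and 134.9 in RFP+ cells. The median difference was 1.46 log2 units over both GFP+ samples and 0.32 for GFP+ replicate 2 alone against the RFP+ mean, where none of the 47 reached 1 log2 unit. Most mRNAs of these genes lack a poly(A) tail, and many are near-identical copies between which reads can be split. Of the 26 genes called higher as deposited, 13 were such histone genes, and none of them was called with all 6 samples. Without them 73 genes were set apart higher (0.667% of the other members). The largest difference of all was that of Lars2, a mitochondrial tRNA synthetase, which was listed at 0 in GFP+ replicate 1 and at 21.8 in GFP+ replicate 2, against 370.4 and 195.6 in RFP+ cells (adjusted p = 0.322). Llgl1, a polarity gene, was also listed at 0 in GFP+ replicate 1 and at 19.0 in GFP+ replicate 2, against 20.2 and 19.6 in RFP+ cells, and so rests on 1 sample.

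Growth and housekeeping genes showed little difference between the colours. None of 40 mitosis and replication genes was set apart (median 0.03, 0 called as deposited), and all 40 differed by under 0.5 log2 units, with Pcna at 232 and 218 in GFP+ cells, against 243 and 191 in RFP+ cells and Birc5 at 333 and 286 in GFP+ cells, against 339.98 and 255 in RFP+ cells. None of 46 ribosomal protein genes was set apart or without overlap, though all 46 differences were below 0 (median -0.21, 0 called as deposited), with Rpl38 at 2078 and 1592 in GFP+ cells, against 2552 and 1858 in RFP+ cells and Rplp1 at 2104 and 1332 in GFP+ cells, against 2429.8 and 1682 in RFP+ cells. Interferon-stimulated genes differed between replicates in both colours. Their summed level was 571 and 1551 in GFP+ cells, against 422 and 1245 in RFP+ cells, and none of 28 was set apart or without overlap (median 0.32, 0 called as deposited). Bst2 was at 135 and 319.96 in GFP+ cells, against 104 and 267 in RFP+ cells, and Isg15 at 109.8 and 254 in GFP+ cells, against 75.1 and 197 in RFP+ cells.

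Markers of other cells were checked beside these results. Of 15 fibroblast and pericyte markers 6 were measured, 4 of them set apart higher. The summed level of the list was 95.9 and 122 in GFP+ cells, against 30.8 and 42.8 in RFP+ cells. The other markers were too low to be tested, though none was at 0 in all 4 samples. Among them, Thy1 was at 0 and 0 in GFP+ cells, against 0 and 0.0199 in RFP+ cells. Lum was at 0.0568 and 0 in GFP+ cells, against 0 and 0 in RFP+ cells. Those set apart were Dcn, Col3a1, Pdgfra and Pdgfrb, described above. Of the other measured markers, Col1a1 was higher by under 1 log2 unit. Mcam lay the other way with overlap, at 2.4 and 4.95 in GFP+ cells, against 3.7 and 6.52 in RFP+ cells. The part of other cells in the matrix results was not tested. Of 12 endothelial markers 1 was measured, Egfl7, with Emcn and Sox17 at 0, and the summed level was 3.61 and 2.65 in GFP+ cells, against 4.85 and 2.87 in RFP+ cells. Of 23 immune markers 2 were measured, Cd14 and Cd68, while 10 were at 0 in all 4 samples, including Cd3e and Emr1, the macrophage marker. Cd14, a receptor for bacterial lipopolysaccharide, was at 146 and 117 in GFP+ cells, against 181 and 189.7 in RFP+ cells, and the summed immune level at 152 and 126 in GFP+ cells, against 186 and 195 in RFP+ cells. Of 9 adipocyte markers 1 was measured, Fabp4, at 7.91 and 8.67 in GFP+ cells, against 3.66 and 3.83 in RFP+ cells, and 3 were at 0 in all 4 samples.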

How the data were processed

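The deposited table gives, for each feature, 1 FPKM value per sample, made by the authors. Tools named in the submitters' processing notes are TopHat, Cufflinks, HTSeq, FastQC and CASAVA 1.8.2, with the build mm9 and without their roles. RNA was extracted from cells sorted by flow cytometry, per the labels' protocols. Raw counts were not used here. Depth could be compared only through the steps of low FPKM values (below 0.05), and the precision is that of 2 samples a group.

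Named protein-coding genes were found through RefSeq's table of mouse genes, 10014 by symbol and 981 by a unique synonym. The 12313 features of any kind that reached an FPKM of 1 in 2 or more of the 4 untreated samples were fitted together in R 4.3.3, using limma 3.58.1 on log2(scaled FPKM + 1), with an intensity trend and 2 residual degrees of freedom. Scaling used median-ratio size factors of the 4 samples. P-values are two-sided and were adjusted over all features by Benjamini-Hochberg, with a threshold of 0.05. A permutation test of a single gene cannot go below 0.333 with 2 samples against 2, so none was run. The fit was checked on simulated data. Promoters were those of RefSeq (GRCm38.p6), used for their letters only, while the FPKM rest on mm9. Pandas 2.3.3, numpy 2.4.6 and matplotlib 3.10.9 in Python 3.11.15 were used for summaries and figures.

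The members and the 33 gene lists and 5 lists of cell markers were chosen with earlier results of these data known. Named genes were, since no gene passed the test, the 10 largest differences each way with an unadjusted p under 0.01, a mean scaled FPKM of 5 or more in the higher colour and no overlap. The panel of epithelial and mesenchymal genes and, from every list, its 2 most abundant members were added. Other list members set apart between the colours, and Lars2 and Llgl1, were named after their values were seen. Some genes and 1 of the 33 lists are not reported here. Alternatives were the FPKM as deposited, quantile normalization, pseudocounts of 0.1 and 5, no filter or a filter of FPKM 5, protein-coding genes only, no trend, robust moderation, all 6 samples, a replicate block, and leaving out each sample.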

Additional observations from a re-analysis of the deposited data

How the results depend on the processing

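Against 0 and 0 genes called higher and lower in GFP+ cells, the counts were 26 and 266 as deposited, 125 and 207 with all 6 samples, 2 and 18 at an adjusted p under 0.10 (chosen after seeing the data), 0 to 37 and 0 to 21 without 1 sample, and 402 and 489 with a replicate block (66 and 391 as deposited). The replicate numbers are not stated to mark a shared culture or sort. The differences of replicate 2 from replicate 1 correlated with r = 0.34 between the colours over 12313 features, which are not independent, and with 2 pairs this does not establish pairing. All other settings gave 0 and 0. Over all features, 1 was called higher and 3 lower, none of them protein-coding. Of list members 10 were called higher and 84 lower as deposited. The 101 genes set apart higher became 55 as deposited, 187 and 36 with pseudocounts of 0.1 and 5, and 120.0 to 197 without 1 sample. The 214 set apart lower became 321 as deposited, and 335 and 62 with those pseudocounts. List medians relative to all genes moved with the filter. Without a filter they were -0.40 for keratins, -0.84 for epithelial transcription and splicing factors, -0.58 for membrane proteases, -0.27 for trafficking, -0.19 for luminal genes, 0.068 for EMT transcription factors, 0.21 for mesenchymal markers and 0.070 for fibroblast markers. With a filter of FPKM 5 they were -1.29 for keratins, -0.46 for epithelial transcription and splicing factors, 0.11 for receptor tyrosine kinases and 0.76 for mesenchymal markers. Fewer or more low members entered under these filters. The main fit called none of the 105 named genes tested, so no called direction of that fit could reverse. Up to 18 genes that no fit called changed sign (without GFP+ replicate 2), all with a main difference under 0.46 in size.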
